A study of Acromyrmex echinatior with 18 samples.

Results

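Small workers of the leaf-cutting ant Acromyrmex echinatior were compared with gynes and large workers for the level of RNA editing in the head. The comparison set 3 small worker RNA libraries against 6 others, 3 of gynes and 3 of large workers, with the same weight for each of the castes. Of 17229 editing sites in the deposited table, 5720 (33.2%) were covered by 10 or more RNA reads in each of the 9 libraries and were tested. Small workers alone departed from the others at 139 of these 5720 sites (2.43%), as defined below.

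Animals came from 3 colonies kept in the laboratory, written here as A, B and C, and each caste and colony gave 1 RNA library. Each small worker library was made from the pooled heads of 200 ants, and each gyne and large worker library from those of 50 ants. Matched DNA libraries from the bodies held 0 reads with the edited base at all sites. RNA reads over all sites numbered 825726 to 1037408 in small workers, 546748 to 650644 in gynes and 479998 to 758457 in large workers, and the median tested site had 68 to 85 reads, 42 to 50 reads and 34 to 59 reads in libraries of these castes. Caste, number of heads pooled and depth therefore changed together and cannot be told apart here. In pooled whole heads, a different mix of cells and a different level of editing per cell cannot be told apart either.

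In animals, ADAR enzymes bind double-stranded RNA and turn adenosine into inosine, which the ribosome and the sequencer read as guanosine, so editing appears as an A-to-G change. Editing of this kind can recode proteins, but most of it falls in untranslated regions, introns and repeats, where RNA folds back on itself and many neighbouring adenosines are edited. Leaf-cutting ant colonies divide labour by body size: small workers mostly tend the fungus garden and the brood, large workers mostly cut and carry leaves, and gynes are the unmated females that can found colonies as queens.

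The editing level of a site was the share of its reads that carried the edited base. Averaged over the tested sites, it was 15.7%, 15.6% and 15.96% in small workers of colonies A, B and C, 12.03%, 11.7% and 11.6% in gynes, and 14.3%, 13.2% and 13.5% in large workers. All 3 small worker libraries lay above the other 6, and large workers lay above gynes in each colony. Small workers averaged 15.8% ± 0.181, against 11.8% ± 0.232 in gynes and 13.6% ± 0.558 in large workers (SD, n = 3 each). The difference of small workers from the mean of the other castes was 3.06 percentage points (exact two-sided permutation test over 84 assignments of the libraries, p = 0.0119, the smallest that 3 against 6 libraries can give). Within colonies A, B and C it was 2.58, 3.17 and 3.43 points, and an exact permutation of the signs of the 3 colony differences, the replicate block, gave p = 0.25, the smallest that 3 colonies allow.

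The difference was seen at A-to-G sites, the change that ADAR makes. Over the 5100 tested A-to-G sites the mean level was 17.3% ± 0.203 in small workers, 12.9% ± 0.234 in gynes and 14.9% ± 0.612 in large workers (SD, n = 3 each), a difference of 3.44 points. Over the 620 sites of other base changes it was 2.89% ± 0.135 in small workers, 2.76% ± 0.227 in gynes and 3.21% ± 0.117 in large workers, a difference of -0.0951 points that was within the spread between libraries (exact permutation test, p = 0.595). The ratio of the A-to-G mean to that of the other changes was 5.997 ± 0.287 in small workers, 4.67 ± 0.302 in gynes and 4.64 ± 0.0503 in large workers (exact permutation test, p = 0.0119). For this ratio gynes and large workers were close to each other and small workers stood above both.

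**Figure D1:**
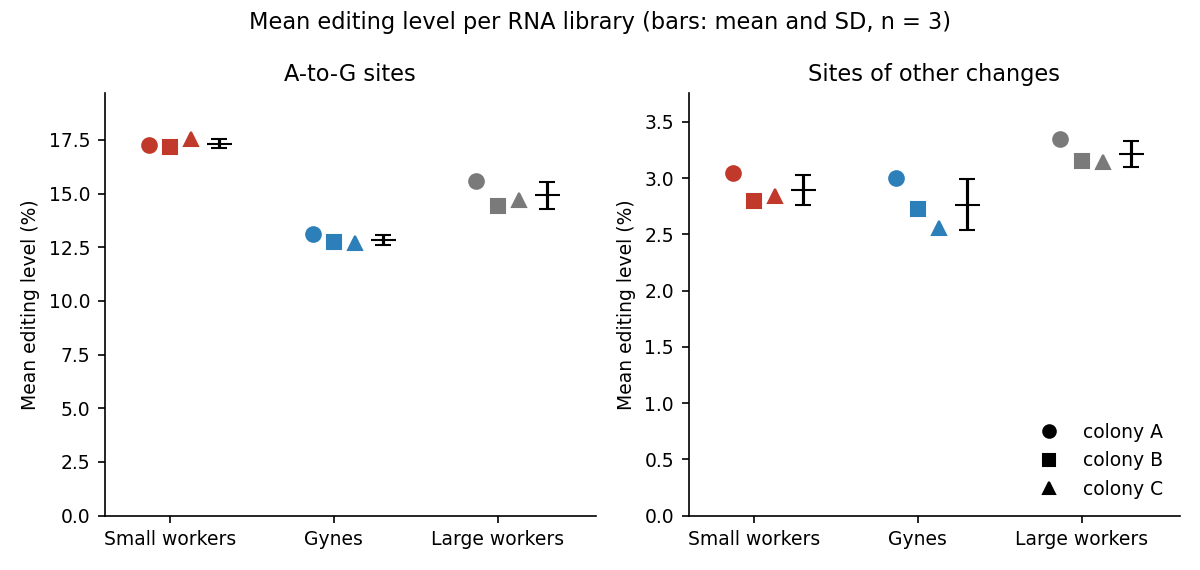
Mean editing level of each RNA library (percent), over A-to-G sites on the left and over sites of other base changes on the right. Symbols are colonies, and the bars give the mean and SD of 3 libraries. The small worker libraries sit above the other 6 for A-to-G sites and overlap gynes for other changes.

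The difference was seen in 6 annotated regions, each compared with the exact permutation test. It was 3.49 points in 3' UTRs, 3.56 in introns and 2.62 at sites without annotation (adjusted p = 0.0238 each, Benjamini-Hochberg over 6 regions). It was 3.48 points in transposable elements outside genes (adjusted p = 0.0357) and 2.79 points in 5' UTRs (adjusted p = 0.0476, 74 sites). Mean levels in 5' UTRs were 15.2% ± 0.876 in small workers, 10.9% ± 0.933 in gynes and 13.8% ± 0.836 in large workers (SD, n = 3 each). Large workers there exceeded gynes by 2.96 points, more than the small worker difference. In coding sequence the small worker difference was smallest, 0.698 points (199 sites, adjusted exact permutation p = 0.0476). The mean level there was 5.84% ± 0.0654 in small workers, 4.82% ± 0.582 in gynes and 5.46% ± 0.407 in large workers (SD, n = 3 each). The difference was thus not limited to the single sites described next: the small worker mean was above that of the other castes at 4055 of 5720 sites (70.9%).

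The edited and unedited reads of a site entered a quasi-binomial model with dispersion moderated by limma, and a site was called at a Benjamini-Hochberg adjusted p under 0.05. The model called 376 of 5720 sites (6.57%), of which 373 were higher in small workers (6.52%) and 3 were lower (0.0524%), with 1254 sites at an unadjusted p under 0.05. Of the called sites 375 were A-to-G changes and 1 was an A-to-T change. The 3 small worker levels lay above all 6 others at 423 tested sites (7.4%) and below them at 13 (0.227%). Relative to the overall shift of each library, the same model called 50 sites, 33 of them higher in small workers and 17 lower. With the colony as a replicate block it called 0 sites, with 1157 at an unadjusted p under 0.05 and a smallest adjusted p of 0.092, whereas limma on arcsine-square-root levels called 99 sites without the block and 116 with it.

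At most of the 373 sites that rose, large workers lay above gynes. Their mean was above that of gynes at 287 sites (76.9%, against 62.4% of all tested sites), and at 72 it was nearer to small workers than to gynes. A site was counted as one where small workers alone departed when it was called, all 3 small worker levels lay outside the 6 others, and the means of large workers and gynes differed by at most 33.3% of the small worker difference. This left 139 sites (2.43%), with 137 higher in small workers and 2 lower, all of them A-to-G changes. Among the 137 the median difference was 13.6 points (range 2.84 to 38.0), a size that the rule itself selects for. The median size of the gap between large workers and gynes there was 1.64 points. This gap is also a choice of the rule, and its precision was limited: the 95% interval of large workers minus gynes had a median half-width of 6.93 points, and it lay within 50% of the small worker difference at 20 of the 139 sites. The quasi-binomial test of large workers against gynes called 0 of the 139 sites, with 3 at an unadjusted p under 0.05, and 10 of all 5720 (0.175%).

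**Figure D2:**
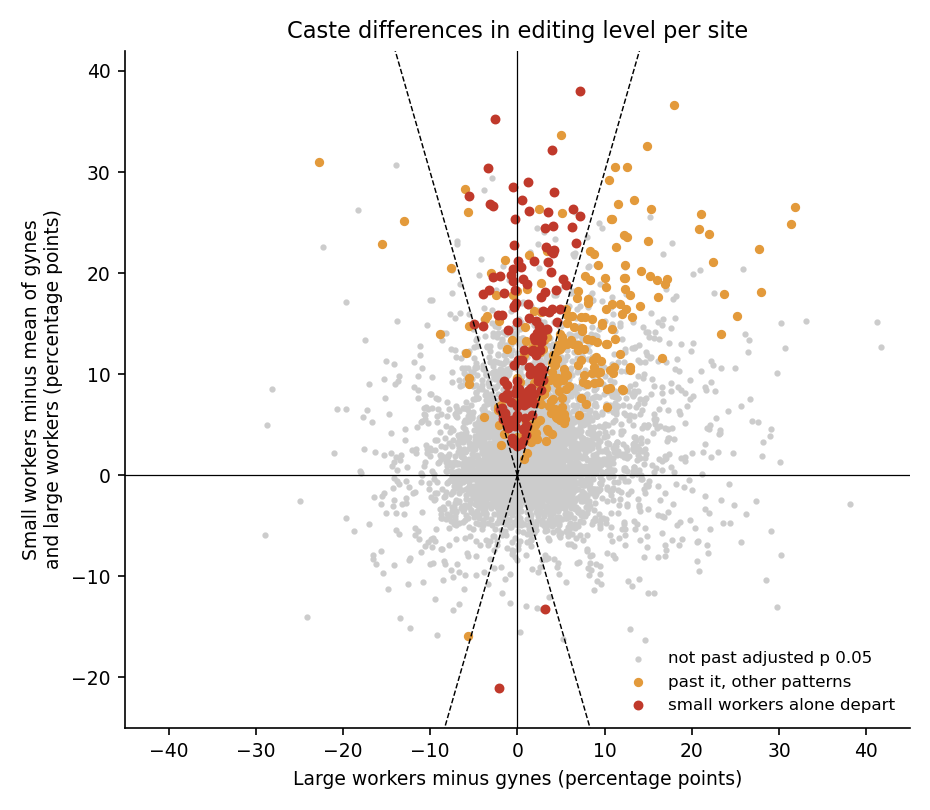
Editing level of small workers minus the mean of gynes and large workers (vertical axis) against large workers minus gynes (horizontal axis), both in percentage points, for the 5720 tested sites. The dashed lines mark a gap of 33.3% of the small worker difference, and the 139 red sites lie between them, all but 2 above 0.

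The 139 sites included 74 of 1777 tested 3' UTR sites (4.16%), 10 of 665 intronic sites (1.504%), 17 of 806 sites in transposable elements outside genes (2.11%) and 36 of 2196 sites without annotation (1.64%). There was 1 among 199 coding sites, 1 among 3 annotated as both coding and intronic and 0 among 74 in 5' UTRs. The share also differed with the level itself: it was 1.31% of the 2067 sites whose level averaged 0 to 5% over the 9 libraries, 2.63% of the 2474 at 5 to 20%, 4.39% of the 888 at 20 to 50% and 2.75% of the 291 above. Coding sites were edited at low levels, and the difference between regions was not tested. The share inside transposable elements, 25.9%, was close to that of all tested sites, 26.7%. Another site of the same set lay within 50 bases of 52 of them (37.4%), as it did for 7.10% of all tested sites, and such neighbours are read in part by the same reads. The authors had marked 88 of the 139 as edited in all 9 RNA libraries and 137 in all 3 small worker libraries, so most were sites edited in every caste whose level was higher in small workers.

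Of the 139 sites, 86 lay in 47 genes or overlapping gene pairs. The largest differences in genes are given here by site, with levels in the order of colonies A, B and C, and names are those of the fly orthologs in the deposited table. Of the 17 sites named in the text by rule, 7 were also called by limma on arcsine-square-root levels and after removing the overall shift of each library: those in Tap42, CG5515, ATPsyn-gamma, Dsp1, the overlapping pair with CG15141 and Aech_12009, and 1 site outside genes. With the replicate block in the quasi-binomial model, adjusted p at the 17 sites was between 0.092 and 0.156. With reads thinned to the lowest depth among the libraries at each site, 11 of the 17 kept their quasi-binomial calls and 6 lost them. Of the 7 sites above, only that in Aech_12009 lost its call (adjusted p = 0.0524). At the rest of those lost, among them the site in S6k, adjusted p was 0.113 to 0.393.

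Tap42 encodes a regulatory partner of the phosphatase PP2A and acts in TOR signalling, the pathway by which cells adjust growth to nutrients. At its 3' UTR site at position 233662 of scaffold 185 (minus strand, assembly Aech_2.0), levels were 40.0%, 48.0% and 54.5% in small workers, 28.1%, 15.4% and 12.8% in gynes and 20.4%, 16.7% and 9.09% in large workers. All small worker libraries exceeded the highest other library, and gynes and large workers overlapped. The difference was 30.4 points (95% interval 18.8 to 42.03; quasi-binomial adjusted p = 0.000464), and large workers minus gynes was -3.39 points (-17.8 to 11.1). S6k, the kinase that TOR activates to promote translation, had a site at position 19642 of scaffold 141 with 62.5%, 55.0% and 45.5% in small workers, 35.3%, 4.35% and 20.7% in gynes and 21.4%, 17.6% and 33.3% in large workers. Its call (quasi-binomial adjusted p = 0.0345) was lost without small workers of colony A or B, gynes of B or C, or large workers of A or B (adjusted p 0.0502 to 0.123), and its reads per library were as few as 11.

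CG5515 is annotated as a protein with an RWD domain. At position 3150 of scaffold 340 levels were 36.5%, 34.7% and 34.8% in small workers, 8.97%, 13.5% and 10.5% in gynes and 15.0%, 18.4% and 12.3% in large workers. The small worker libraries agreed within 2 points of each other and stood apart from the other 6. The difference was 22.2 points (13.3 to 31.2; quasi-binomial adjusted p = 2.86e-05).

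ATPsyn-gamma forms the rotating stalk of mitochondrial ATP synthase. At position 2329626 of scaffold 244, in its 3' UTR, levels were 28.6%, 41.1% and 44.4% in small workers, 10.6%, 12.1% and 8.26% in gynes and 19.3%, 12.9% and 17.5% in large workers. Small workers did not overlap the others, and large workers lay above gynes in each colony by a difference of 6.26 points whose interval, -1.47 to 13.99, included 0. The small worker difference was 24.6 points (13.6 to 35.6; quasi-binomial adjusted p = 4.31e-05).

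Dsp1, a DNA-bending high mobility group protein known in flies as a corepressor, had its site in an intron inside a transposable element, at position 151842 of scaffold 294. Levels there were 45.6%, 48.8% and 36.4% in small workers, 16.7%, 22.8% and 12.2% in gynes and 27.9%, 17.0% and 27.03% in large workers, a difference of 23.02 points (14.8 to 31.2; quasi-binomial adjusted p = 4.23e-06). The neighbouring base at position 151843 showed the same order, with 46.4% ± 2.59 in small workers, 24.3% ± 6.08 in gynes and 29.6% ± 6.60 in large workers (SD, n = 3 each).

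The genes Aech_10515 and Aech_10516 overlap, and the second is annotated as CG15141, a putative E3 ubiquitin ligase of the UBR7 type, an enzyme that would tag proteins with ubiquitin. At the intronic position 269064 of scaffold 21 levels were 52.9%, 49.7% and 66.1% in small workers, 29.9%, 41.4% and 17.0% in gynes and 40.2%, 29.0% and 23.3% in large workers. Colony C had the highest small worker level and the lowest levels of the other castes. The difference was 26.1 points (18.6 to 33.6; quasi-binomial adjusted p = 4.77e-08), but the dispersion of the site itself was 6.11, against 1.98 used in its test.

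The remaining named sites higher in small workers did not pass limma on arcsine-square-root levels (adjusted p 0.0773 to 0.168). Nup98-96, which encodes nuclear pore proteins, reached 89.3%, 69.0% and 76.5% in small workers, 63.2%, 47.6% and 22.2% in gynes and 50.0%, 36.4% and 38.9% in large workers at position 70261 of scaffold 448 (difference 35.2 points, quasi-binomial adjusted p = 0.00855, and 0.0668 without small workers of colony A). Cdk9, the kinase that releases paused RNA polymerase II, had 72.9%, 62.5% and 64.8% in small workers, 47.8%, 40.0% and 37.8% in gynes and 46.7%, 33.3% and 28.9% in large workers at position 394001 of scaffold 141 (difference 27.6 points, quasi-binomial adjusted p = 0.00375). In neither gene did the small worker libraries overlap the others. With reads thinned to the lowest depth, adjusted p was 0.196 at the first of these sites and 0.000356 at that in Cdk9.

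Msp-300, a nesprin that ties nuclei to the cytoskeleton in muscle, differed by 28.5 points at position 426025 of scaffold 220 (56.4% ± 4.21 in small workers, 28.1% ± 19.5 in gynes and 27.6% ± 4.58 in large workers; SD, n = 3 each). Gynes of colony C, at 5.56%, were far below gynes of A and B at that site. Its quasi-binomial adjusted p was 0.393 with reads thinned to the lowest depth, so the call was lost. The call of the sodium/hydrogen exchanger gene Nhe2 (34.1% ± 16.7 in small workers, 6.205% ± 5.38 in gynes and 9.73% ± 2.42 in large workers at position 1978172 of scaffold 10) was lost without small workers of B or C or gynes of C (quasi-binomial adjusted p 0.0735 to 0.145). CG11590, a CutA-like protein, differed by 28.0 points at position 152081 of scaffold 517 and lost its call without small workers of A or B, gynes of B, or large workers of B or C (adjusted p 0.0521 to 0.0915). CG14621, a solute carrier, differed by 22.2 points at position 7931 of scaffold 463, one of the most edited sites (89.8% ± 5.86 in small workers, 65.6% ± 3.96 in gynes and 69.5% ± 3.33 in large workers), and lost its call without small workers of A or B or large workers of C (adjusted p 0.0517 to 0.0844).

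The 2 sites lower in small workers lay in transposable elements. In an intron of the uncharacterized gene Aech_12009, at position 280857 of scaffold 15, small workers had 0 edited reads of 51 over the 3 libraries, which allows a level of up to 5.88%. Gynes had 21.2%, 25.0% and 20% there and large workers 30.0%, 6.25% and 23.8%. Every small worker library lay below every other library, and the quasi-binomial adjusted p of 0.0164 became 0.0915 without small workers of colony A. With reads thinned to the lowest depth, adjusted p at that site was 0.0524. Outside genes, at position 2684690 of scaffold 7, levels were 87.4%, 81.1% and 79.8% in small workers, 90.0%, 93.3% and 100% in gynes and 92.7%, 100% and 100% in large workers. That call, at an adjusted p of 0.0461, was lost without small workers, gynes or large workers of B or C (adjusted p 0.0872 to 0.107).

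**Figure D3:**
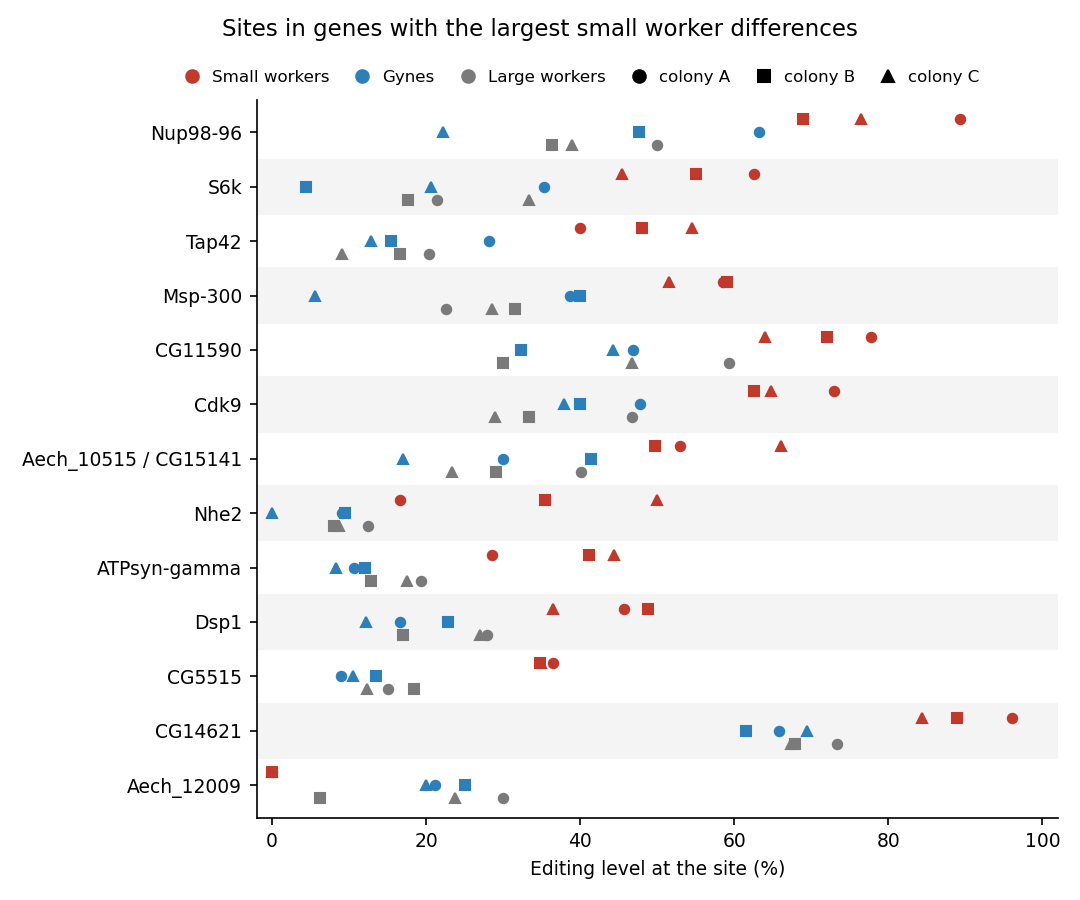
Editing level (percent) in each of the 9 libraries at the named sites in genes, 1 row per site, with castes by colour and colonies by symbol. In the upper 12 rows the small worker points lie to the right of all others, and in the row of Aech_12009 they lie at 0 (overlapping points). This separation was a condition for choosing the sites.

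Outside genes, the site with the largest difference of all was in a transposable element at position 266807 of scaffold 166. Levels were 48.6%, 68.2% and 55.8% in small workers, 7.41%, 21.4% and 18.8% in gynes and 26.6%, 29.8% and 12.9% in large workers, and the small worker libraries stood clear of the rest. The difference was 38.0 points (26.4 to 49.7; quasi-binomial adjusted p = 6.49e-07). At 2 sites without annotation the differences were 29.0 points (position 172374 of scaffold 280) and 27.2 points (position 556991 of scaffold 344). The first lost its call without small workers of A or C, gynes of B or C, or large workers of A or B (adjusted p 0.0502 to 0.136), and the second without small workers of C (adjusted p = 0.0637).

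At a few sites the edited base was found almost wholly in small workers. The authors had marked 169 of all 17229 sites in the 3 small worker libraries and in 0 of the others, and 3 sites in the other 6 libraries and in 0 small worker libraries. The first count needed marks in 3 libraries and the second in 6, so the 2 counts are not alike. Of the 169, only 41 were deep enough to enter the model. The quasi-binomial model called 8 of these 41 and did not call the rest. The CG8920 and tos sites below were among the 8 that were called. These marks rest on the same reads as the levels, so the values below are a description and no separate support. In the 3' UTR of CG8920, annotated as a Tudor domain protein, levels at position 2383973 of scaffold 121 were 5.08%, 12.8% and 8% in small workers, with 0 edited reads of 105 in gynes and 0 of 74 in large workers, which allow levels of up to 2.86% and 4.05%. At the coding site of tos, an exonuclease of DNA repair, small workers had 1.62%, 5.81% and 9.64%, gynes 0%, 0% and 0.529%, and large workers 0 edited reads of 213, which allows up to 1.41%. Depth was highest in small workers, and its part in these marks was not tested.

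Several sites of 1 gene departed together. The genes given here were chosen for their number of such sites, so these counts are a description. Over all tested sites small workers had the highest of the 3 caste means at 3124 of 5720 (54.6%). Tap42 held 7 departing sites among its 45 tested 3' UTR sites, and small workers had the highest mean at 39 of the 45 (86.7%). The uncharacterized gene Aech_07791 held 6 of 44, with 33 highest in small workers (75%). There were 5 of 17 in tutl, an immunoglobulin superfamily protein of nerve cell surfaces, with 16 highest in small workers, and 5 of 12 in nuf, a Rab11 partner in membrane recycling, with all 12 highest. Mdh1, malate dehydrogenase, held 5 of 81, with 62 highest (76.5%). CG42258 held 4 of 13, CG5515 4 of 14 and the pair with CG15141 4 of 21. CG11444 and Dsp1 held 2 each, as did 5 other genes, Aech_05751, Aech_08131, CG11590, Cdk9 and Msp-300. Sites within a read of each other share reads and are not independent.

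Within these genes the departing sites were not all highly edited. In nuf they ranged from 4.91% to 23.3% in small workers, from 1.72% to 11.3% in gynes and from 1.35% to 13.9% in large workers. In tutl they ranged from 14.8% to 20.2% in small workers, from 6.53% to 11.9% in gynes and from 5.33% to 12.4% in large workers. In Mdh1 all 5 lay between positions 186275 and 186555 of scaffold 31, toward one end of a cluster of tested sites that ran from 184398 to 186888. Coverage was compared as the log2 ratio of small workers over the other castes, in shares of each library's reads over tested sites. Its median was -1.07 over the tested sites of Mdh1 and -1.21 over those of nuf, and it was -0.16 over the 139 sites and 0.13 over all tested sites. The part of such differences in coverage in the editing levels was not tested.

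**Figure D4:**
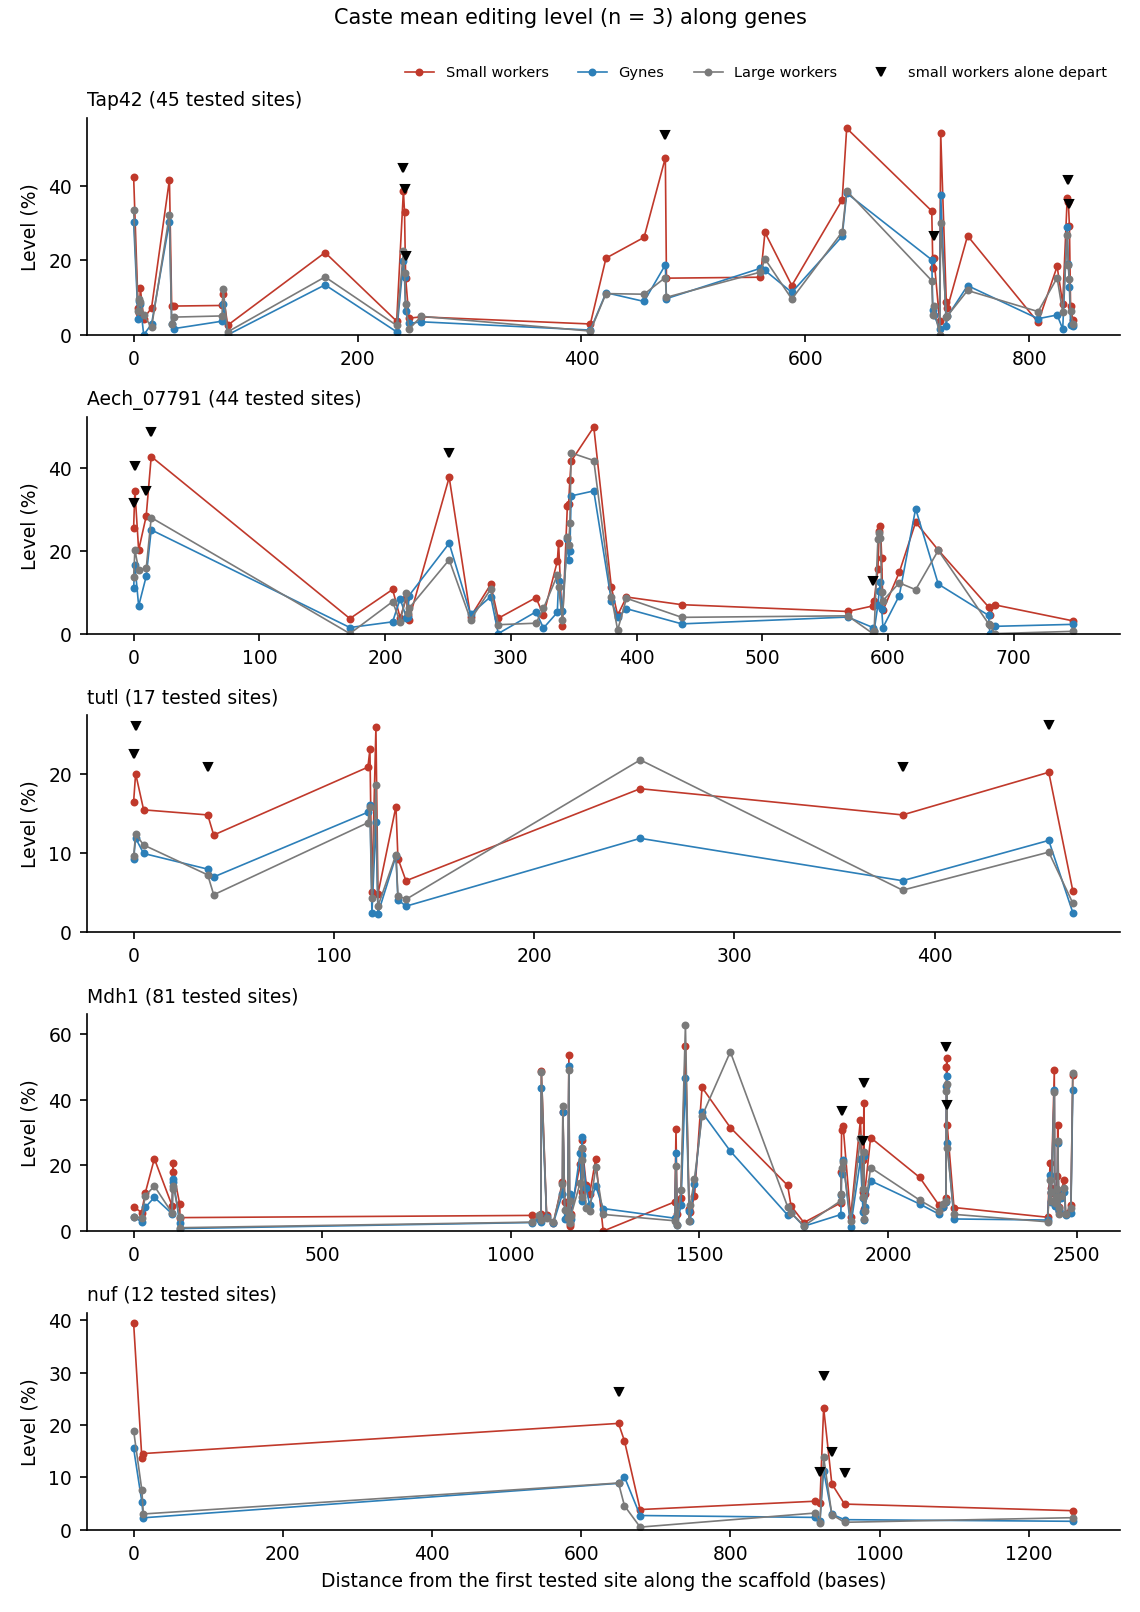
Caste mean editing level (percent, n = 3) at each tested site of the 5 genes with the most departing sites, by distance in bases from the first tested site along the scaffold. Triangles mark sites where small workers alone departed. The small worker line runs above the gyne and large worker lines at 39 of 45 sites of Tap42 and at all 12 of nuf.

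The gene was then taken as the unit, with the mean level over its tested sites. Limma on arcsine-square-root levels called 68 of 700 genes (9.71%), of which 67 were higher in small workers (9.57%) and 1 was lower (0.143%), with 149 at an unadjusted p under 0.05. The gene means repeat the site data and are no independent check of them. With the replicate block 75 genes were called, 68 of them shared. Relative to the mean of each library 22 genes were called, 19 higher and 3 lower in small workers, and 20 of them were among the 68. With default moderation (no trend, not robust) 13 genes were called, 9 of them shared. The 10 genes with the smallest p and the called genes among those taken from the lists came to 29. Of these, 6 kept their calls with default moderation: Alas, ATPsyn-gamma, CG14621, CG5515, Nup98-96 and Pxd. Relative to the library means 12 kept them: Argk, ATPsyn-gamma, CG14621, CG15141, CG31365, CG5515, nuf, Nup98-96, Pep, skap, Tap42 and tutl. Among genes named only for their number of departing sites, Dsp1 (limma adjusted p = 0.0187) and Aech_07791 (0.035) also kept theirs relative to the library means. CG42258 (0.0525) and CG11444 (0.480) did not, and all of them lost their calls with default moderation (0.114 to 0.177). Leaving out small workers of colony A, B or C left 43, 35 or 37 calls.

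In 25 genes (3.57%) small workers alone departed by the same rule, all of them higher. In nuf the mean level was 11.8%, 16.3% and 11.9% in small workers, 5.08%, 5.14% and 6.48% in gynes and 5.86%, 7.58% and 3.70% in large workers (limma adjusted p = 2.06e-11, and 0.0724 with default moderation). In Tap42 it was 18.4%, 20.1% and 18.5% in small workers, 13.6%, 10.6% and 8.83% in gynes and 12.3%, 11.05% and 12.2% in large workers (limma adjusted p = 2.14e-10, and 0.111 with default moderation). Gynes and large workers overlapped in both genes, and small workers lay above them, as the rule requires. In tutl the means were 14.7% ± 0.545 in small workers, 8.58% ± 1.22 in gynes and 9.45% ± 1.32 in large workers (SD, n = 3 each, limma adjusted p = 9.23e-09, and 0.134 with default moderation).

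Argk, arginine kinase, buffers ATP with phosphoarginine in insect muscle and nerve. Its single tested site, in the 3' UTR at position 4364760 of scaffold 7, was read 1206 to 2321 times per library. Levels were 5.66%, 7.38% and 6.73% in small workers, 1.46%, 1.26% and 0.905% in gynes and 3.62%, 1.40% and 1.88% in large workers, so small workers lay above the others at a low level (difference 4.83 points, quasi-binomial adjusted p = 7.3e-16). By the gene test its limma adjusted p was 4.98e-10, and 0.05198 with default moderation. It was the 1 site of the 139 at which the interval of large workers minus gynes, 0.274 to 1.92 points, left out 0. S6k averaged 26.3% ± 0.717 over 16 sites in small workers, 17.7% ± 3.33 in gynes and 14.6% ± 3.64 in large workers (SD, n = 3 each, limma adjusted p = 0.00261). Its call was lost without small workers of colony B, where adjusted p was just above 0.05, with default moderation (0.114) and relative to the library means (0.131). ATPsyn-gamma averaged 17.1% ± 2.77 in small workers, 4.46% ± 0.834 in gynes and 6.88% ± 1.77 in large workers (limma adjusted p = 8.57e-06).

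**Figure D5:**
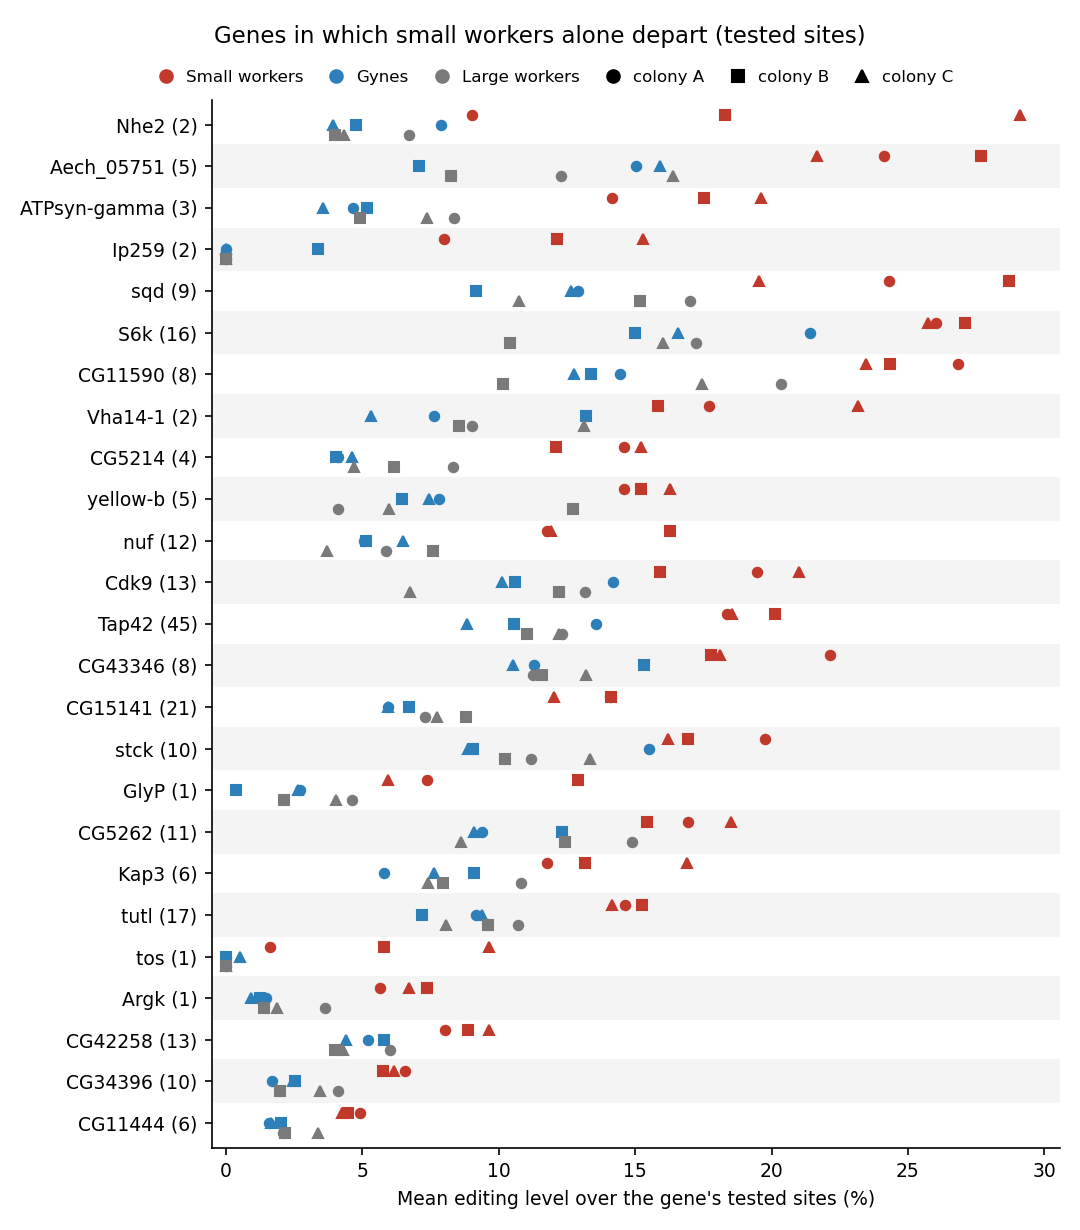
Mean editing level (percent) over the tested sites of the 25 genes where small workers alone departed, 1 row per gene with its number of tested sites, for each of the 9 libraries. Small worker points lie to the right of the gyne and large worker points in every row, which was a condition for choosing the genes.

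Another 42 genes were called higher and did not meet that rule. In 38 of them the large worker mean lay between those of gynes and small workers, and in 19 the small worker libraries did not all lie above the other 6. In 11 of the 68 genes limma also called large workers against gynes. Hsc70-4, a constitutive chaperone, was such a gene, with 16.3% ± 0.890 in small workers, 11.5% ± 0.378 in gynes and 13.9% ± 0.199 in large workers (SD, n = 3 each, limma adjusted p = 9.23e-09). Its call was lost with default moderation (adjusted p = 0.283) and relative to the library means (0.456). In CG5515 the gene mean was 14.8% ± 1.25 in small workers, 4.02% ± 0.866 in gynes and 7.44% ± 1.45 in large workers, with limma adjusted p = 3.43e-15 for small workers and 0.0124 for large workers against gynes. At CG11665, a monocarboxylate transporter, small workers were at 12.7% ± 1.124, gynes at 2.795% ± 1.80 and large workers at 11.3% ± 1.58, and small and large workers overlapped. Its call (limma adjusted p = 0.000575) was lost with default moderation (0.125) and relative to the library means (0.102). The 1 gene lower in small workers was the uncharacterized Aech_09867, with 17.6% ± 1.14 in small workers, 22.1% ± 3.37 in gynes and 21.2% ± 1.39 in large workers (limma adjusted p = 0.0374). The call was lost without any 1 small worker library, gynes of B or C, or large workers of A or B (adjusted p 0.0638 to 0.297) and with default moderation (0.389). Relative to the library means the call was kept, at a limma adjusted p of 1.9e-05. In that gene small workers overlapped gynes.

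Gene groups were described by their counts of called genes, to be read against 67 of 700 genes called higher (9.57%). Over all genes the median difference was 1.4998 points, and the median of large workers minus gynes was 0.948 points. The latter median exceeded the small worker one for transporters (1.85 points), RNA binding and processing (1.92) and synaptic vesicle release (2.07). In the other groups described below it was smaller than the small worker one. In mitochondrial energy metabolism 10 of 29 genes were higher in small workers and 0 lower, with a median difference of 2.34 points. They included enzymes of the tricarboxylic acid cycle (SdhA of succinate dehydrogenase, skap of succinyl-CoA ligase and CG5214 of 2-oxoglutarate dehydrogenase), ATPsyn-gamma, the pyruvate carboxylase gene CG1516 and the mitochondrial elongation factor EfTuM. SdhA had 13.5% ± 1.76 in small workers, 5.31% ± 1.88 in gynes and 7.69% ± 1.79 in large workers (SD, n = 3 each, limma adjusted p = 7.87e-05, and 0.113 with default moderation). Small workers alone departed in 3 of the 10: ATPsyn-gamma, CG5214 and CG43346. The list was matched by words in protein names, so it also took in Mdh1, a malate dehydrogenase whose fly ortholog is the cytosolic enzyme, and Alas, the first enzyme of heme synthesis, and Prx5, a peroxidase, which are counted again below. Of the 10 calls, 3 were kept with default moderation and 4 relative to the library means. Leaving out 1 library ended those of CG1516 (without small workers of B, adjusted p = 0.0645), CG43346 (without small workers of A, 0.0963) and EfTuM (without small workers of A, B or C, 0.0839 to 0.131).

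Of 11 redox and heme genes 3 were higher in small workers, Prx5, Alas and the peroxidase gene Pxd, and the median difference was 3.27 points. Alas had 15.9%, 12.8% and 16.9% in small workers, 0.775%, 3.16% and 2.27% in gynes and 7.48%, 5.69% and 6.10% in large workers at its 1 tested site, so each caste was separate from the others (limma adjusted p = 0.00403, and 0.0737 relative to the library means). Pxd, at 17.9% ± 2.01 in small workers, 4.05% ± 2.14 in gynes and 8.64% ± 0.901 in large workers, lost its call without small workers of any 1 colony (adjusted p 0.0582 to 0.0833) and relative to the library means (0.162). Of 21 transporter genes 5 were higher, among them Nhe2 and the proton pump subunits VhaSFD and Vha14-1, with a median difference of 1.26 points over the list. VhaSFD had 16.4% ± 0.759 in small workers, 11.9% ± 1.45 in gynes and 13.8% ± 2.24 in large workers. Its call was lost without small workers of any 1 colony or gynes of B (limma adjusted p 0.0545 to 0.181), with default moderation (0.359) and relative to the library means (0.663). Nhe2 lost its call without small workers of B or C (adjusted p 0.101 to 0.255). Vha14-1 lost its call without any 1 small worker library, gynes of C or large workers of A (adjusted p 0.057 to 0.252).

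Of 49 kinases and phosphatases 5 were higher (10.2%), with small workers alone departing in Argk, Cdk9 and S6k, and the median difference was 1.59 points. Cdk9 had 18.8% ± 2.62 in small workers, 11.6% ± 2.23 in gynes and 10.7% ± 3.46 in large workers, and its limma adjusted p of 0.00127 became 0.0923 without small workers of C, 0.611 at a minimum of 20 reads, 0.161 with default moderation and 0.131 relative to the library means. Of 27 RNA binding and processing genes 4 were higher, and the median difference was 1.74 points. The splicing regulator sqd had 24.2% ± 4.59 in small workers, 11.6% ± 2.09 in gynes and 14.3% ± 3.23 in large workers (limma adjusted p = 0.000718). Its adjusted p was 0.0618 without small workers of B, 0.0959 with default moderation and 0.0525 relative to the library means. CG6197, a splicing factor, had 18.2% ± 0.820 in small workers, 9.27% ± 2.04 in gynes and 17.9% ± 5.04 in large workers. Its call (adjusted p = 0.00893) was lost without small workers of any 1 colony, gynes of B, or large workers of A or B (adjusted p 0.058 to 0.14), with default moderation (0.336) and relative to the library means (0.467).

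Of 26 transcription factors and zinc finger genes 2 were higher, Pep and CG31365, and CG31365 lost its call without small workers of C (limma adjusted p = 0.0758) and with default moderation (0.0635). The median difference of that list was 2.23 points. Of 22 cytoskeleton and muscle genes 2 were higher, Msp-300 and the kinesin partner Kap3, with a median difference of 1.28 points. Msp-300 lost its call without any 1 small worker or large worker library or gynes of C (limma adjusted p 0.1001 to 0.275). Kap3 lost its call without any 1 small worker library or gynes of A (adjusted p 0.0513 to 0.252). Of 14 ubiquitin and proteasome genes 2 were higher, CG15141 and Usp7, with a median difference of 2.20 points. Usp7 lost its call without small workers of A or B (limma adjusted p 0.0515 to 0.156), with default moderation (0.134) and relative to the library means (0.306). Of 11 ion channel and neurotransmitter receptor genes 1 was higher (9.09%, close to the share of all genes), the potassium channel gene CG34396, with 6.17% ± 0.414 in small workers, 2.24% ± 0.472 in gynes and 3.18% ± 1.08 in large workers (SD, n = 3 each, limma adjusted p = 0.00105). Its call was lost with default moderation (0.151) and relative to the library means (0.2201). Of 10 synaptic vesicle release genes 0 were called by limma, and the median differences of these lists were 0.949 and 1.13 points.

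Adar, the editing enzyme's own gene, was not among the called genes. Over its 5 tested sites, all in the 5' UTR between positions 702612 and 702723 of scaffold 326, the mean level was 20.8%, 24.1% and 21.4% in small workers, 22.7%, 28.7% and 38.9% in gynes and 20.6%, 25.0% and 24.1% in large workers. The castes overlapped (limma adjusted p = 0.502). The reads over these 5 sites, edited or not, numbered 675, 819 and 591 per 1000000 reads of tested sites in small workers, 220.5, 308.5 and 215 in gynes and 384, 250.0 and 386 in large workers. All 3 small worker libraries were above the other 6, with a mean 2.36 times that of the other castes (exact two-sided permutation test, p = 0.0119, the smallest these libraries allow). That p-value is for this 1 gene and was not adjusted. The log2 ratio of coverage was 1.17 to 1.39 at the 5 sites, and its quartiles over all tested sites were -0.244 and 0.476. The Adar reads cover a short stretch of the 5' UTR, so they are no measure of the transcript as a whole. Their part in the editing levels was not tested.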

How the data were processed

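Per the labels, strand-specific libraries of polyadenylated RNA from pooled heads and DNA libraries from bodies were sequenced as paired reads. BWA 0.5.9-r16 is named in the submitters' processing notes, and how sites were detected is not given in the sources used here. Per the file headers, the deposited table gives counts of reads with the reference and with the edited base for each site and library, positions in assembly Aech_2.0, the annotated element and the fly ortholog. Its values were packed read counts and not a normalized score.

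Levels were edited reads over all reads at sites with at least 10 RNA reads in every RNA library. The site test was a quasi-binomial logistic model of edited and unedited reads in R 4.3.3, contrasting the log odds of small workers with the mean of the other castes. Its dispersion was moderated by squeezeVar of limma 3.58.1 with a trend on depth, robust, and kept at 1 or above. In simulated data the false calls were somewhat more frequent than the nominal rate. Genes (sites in overlapping genes left out) were tested with limma after the mean level was put on the arcsine-square-root scale, with robust moderation and a trend on reads. Adjustment was Benjamini-Hochberg over all sites or genes, at 0.05. Library means were compared with exact permutation tests.

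The named sites were the 12 largest differences in each direction in genes, at most 1 per gene, and the 3 largest in each direction outside genes. The named genes were the 10 with the most departing sites (7 genes tie at 2 sites, of which 2 were taken), the 10 with the smallest p, up to 3 per list and Adar. CG8920, tos, Aech_09867, the second Dsp1 site and list members beyond these were chosen after their values were seen. The sites, the gene lists, matched by word patterns in protein names, and the tests were chosen with earlier results of these data known.

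Replicate letters mark colonies per the labels, so they pair the libraries. Between libraries of 1 colony, deviations from their caste means had r from -0.0225 to 0.0665 (median 0.0237, 9 pairs). The heads were pooled, so p-values measure the spread between colony pools and not between ants. Intervals and limits for 0 counts cover counting error as scaled by the dispersion or counting alone, since reads carry no molecular identifiers. No genome was used, so sequence around sites and amino acid changes were not analysed here. Python 3.11.15 with pandas 2.3.3 and matplotlib 3.10.9 served for tables and figures.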

Additional observations from a re-analysis of the deposited data

How the results depend on the processing

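The count of 376 called sites was 255 to 383 when any 1 library was left out, and the 139 sites where small workers alone departed became 101 to 189. These sets were in part other sites: they held 230 to 308 of the 376 and 84 to 107 of the 139. Coverage minimums of 5 or 20 reads, other moderation of the dispersion, no floor, A-to-G changes alone and a mean level of at least 5% gave 347 to 421 called sites and 120 to 147 alone. The larger moves came from 5 settings. Limma on arcsine-square-root levels gave 99 sites called and 45 alone. The same with the replicate block, added after seeing the data, gave 116 and 52. The replicate block in the quasi-binomial model gave 0 and 0, and removing the overall shift gave 50 and 21. Thinning every site to its lowest depth among the libraries gave 247 and 93, which held 186 of the 376 and 57 of the 139. Of the 139 sites, 20 were called both by limma on arcsine-square-root levels and after removing the overall shift, 19 of them higher in small workers. Of the 20, 11 lay in 8 genes or gene pairs, among them Argk and Eip93F. A gap of up to 50% of the small worker difference gave 181 sites, a gap also under 5 points 131, and overlap of libraries allowed 188. Over the alternatives run on them, named sites kept their calls in 278 cases, lost them in 86 and reversed in 0.

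Genes called numbered 68, and 35 to 69 with 1 library left out, 13 with default moderation and 22 relative to library means. Genes where small workers alone departed numbered 25, and 18 to 35 with 1 library left out, 38 at a minimum of 5 reads, 6 with default moderation and 10 relative to library means. The mean difference of 3.06 points was 2.38 to 4.56 points under other summaries and became -0.0951 points over changes other than A-to-G. With the replicate block its exact permutation p was 0.25, and genes called numbered 75, with 26 alone. The cause of these moves was not tested. The tested sites are the deepest 33.2% of the table, so sites of weakly expressed genes are not covered.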
